A study of Homo sapiens with 6 samples.

Results

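The genes described here are 10 genes of bone marrow homing: the receptor genes CXCR4, ACKR3, CXCR3, CCR2, CCR10 and S1PR1 and the secreted chemokine genes CXCL12, CCL3, CCL4 and CCL5. They were taken as the probe sets annotated to exactly 1 of these symbols, each kept separate, which gave 18 of the 54613 probe sets on the array, 12 of receptors and 6 of chemokines. CCL3 had no probe set of its own, since the probe set that carries its symbol also carries those of 2 near-identical copies, CCL3L1 and CCL3L3, so the results cover 9 genes. RNA came from MM1S, an established human myeloma line; myeloma is a tumour of plasma cells in the bone marrow. There were 3 arrays of cells labelled normoxia and 3 of cells labelled hypoxia, with the replicate numbers 0, 1 and 2 in each group, to see which mRNA levels differ between the conditions. The treatment text names 24 h of hypoxia on all arrays alike, and the oxygen level and the handling of the normoxia cells are not given in the sources used here. All arrays hold 1 cell line, and the labels name no added stromal cells and do not state whether replicates came from different cultures. The p-values therefore measure only the spread between these arrays, which may be technical.

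Chemokines are small secreted proteins that guide cells along gradients by binding receptors that couple to inhibitory G proteins. CXCL12, made mostly by stromal cells of the marrow, binds CXCR4, and this axis holds normal and malignant plasma cells in the marrow. CXCR4 is known in many cell types as a gene induced by the hypoxia-inducible factors (HIF). S1PR1 reads sphingosine 1-phosphate and directs lymphocytes out of tissues, the opposite movement.

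Array medians lay between 54.95 and 60.1 intensity units, and log2 values correlated at 0.988 to 0.993 within and 0.962 to 0.968 between groups, across probe sets, which are not independent replicates. Of 10 plasma cell marker genes, 9 were not below the array median throughout, with a summed intensity of 54848 to 56840 in normoxia and 53688 to 56195 in hypoxia. CD27 lay below the median on every array. In limma 4 of the 10 passed lower and 0 higher (4 and 1 at an unadjusted p of 0.05). Over all genes, each read by its brightest probe set, 19.1% passed lower and 15.6% higher at the adjusted threshold. The share at the unadjusted p was not worked out, so the unadjusted counts here and below have no baseline. The 4 were SDC1 at -0.30, CD38 at -0.71 (from 335 ± 23.3 to 198 ± 12.4), MZB1 at -0.26 and SLAMF7 at -0.34. Those not past were XBP1 at 0.22, CD27 at 0.14, PRDM1 at 0.12, JCHAIN at 0.060, IRF4 at 0.056 and TNFRSF17 at -0.15. IRF4 and PRDM1 each had 1 of 3 probe sets higher. The 4 falls went with the falls of CXCR4 and CCR10 given below, and their part in them was not tested. The sums of 9 T and NK cell markers were 293 to 365 and 296 to 390, and those of 8 monocyte and macrophage markers 222 to 263 and 247 to 336. Genes known to rise in hypoxia were higher on the arrays labelled hypoxia: NDRG1 was 4.74 times and VEGFA 1.63 times its normoxia mean (limma adjusted p = 5.28e-05 and 0.000829), both picked with their values known.

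The window around the most upstream annotated start of CXCR4, from 250 bases before to 50 after it, is shown because CXCR4 is a textbook HIF target, and that of CXCR3 because 1 of its probe sets had a large change. Sequences are from RefSeq on GRCh38.p14, where the CXCR4 window is chr2:136118100-136118399 and the CXCR3 window chrX:71618462-71618761, both on the minus strand and written 5′ to 3′. Capitals mark the core of the HIF binding motif, ACGTG or GCGTG on either strand, and the motif of nuclear respiratory factor 1 (NRF1), which is GCGC, any base and TGCGC, on either strand.
CXCR4: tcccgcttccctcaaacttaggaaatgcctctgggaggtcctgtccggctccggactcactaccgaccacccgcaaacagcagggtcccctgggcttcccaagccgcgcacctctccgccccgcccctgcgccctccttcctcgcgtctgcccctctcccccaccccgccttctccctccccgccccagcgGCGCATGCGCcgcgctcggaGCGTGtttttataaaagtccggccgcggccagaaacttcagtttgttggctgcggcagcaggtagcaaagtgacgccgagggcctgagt
CXCR3: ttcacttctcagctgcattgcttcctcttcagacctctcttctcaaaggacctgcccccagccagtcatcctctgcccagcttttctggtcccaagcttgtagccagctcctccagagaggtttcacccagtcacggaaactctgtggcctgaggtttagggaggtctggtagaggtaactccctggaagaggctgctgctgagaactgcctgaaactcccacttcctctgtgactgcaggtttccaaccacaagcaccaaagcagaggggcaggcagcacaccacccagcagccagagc
The CXCR4 window held 1 HIF core, which began 39 bases before the start, and 1 NRF1 motif, which began 59 bases before it. The CXCR3 window held neither. Of 3 CXCR4 windows in the table, at different starts, 2 held a HIF core. A HIF core was present in 48.4% of all 35116 promoter windows of that length and the NRF1 motif in 5.78%, so the HIF core by itself sets CXCR4 apart little. A match is a run of letters and was not measured as a binding site here. Of the 10 genes, 6 had a window (CXCR4, CXCR3, CCR2, S1PR1, CXCL12 and CCL3), and ACKR3, CCR10, CCL4 and CCL5 had none in the table.

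CXCR4 mRNA was lower in hypoxia in all of its 3 probe sets. On the brightest, 217028_at, the intensity was 2072, 2305 and 2312 in normoxia and 1447, 1705 and 1659 in hypoxia. Every hypoxia array lay under every normoxia array, and the hypoxia mean was 28.1% lower. Changes are the hypoxia mean minus the normoxia mean of log2(intensity + 16), a scale that shrinks the changes of dim probe sets; here the change was -0.47 (95% confidence interval -0.71 to -0.24, limma adjusted p = 0.0114). Since the arrays measure bulk RNA, fewer cells with the transcript and less transcript per cell cannot be told apart.

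The second CXCR4 probe set, 211919_s_at, read 707, 918 and 887 in normoxia and 499, 599 and 556 in hypoxia. The third, 209201_x_at, read 725, 871 and 864 in normoxia and 486, 601 and 500.4 in hypoxia. Neither overlapped between the groups. Their changes were -0.58 (95% confidence interval -0.89 to -0.27, limma adjusted p = 0.0159) and -0.62 (-0.91 to -0.33, limma adjusted p = 0.00988). Array 0 was the lowest of its group in both conditions on all 3 probe sets. Within arrays, the changes of the dimmer probe sets minus that of the brightest were -0.11 and -0.14 (exact two-sided permutation test over arrays, p = 0.3 and 0.2), so a difference among the CXCR4 probe sets was not shown. The call of 211919_s_at was lost without normoxia array 1, without normoxia array 2 and without hypoxia array 2 (limma adjusted p = 0.0575, 0.0593 and 0.0505), while the calls of 217028_at and 209201_x_at were kept under every alternative run, with limma adjusted p of at most 0.0462 and 0.0417.

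**Figure D1:**
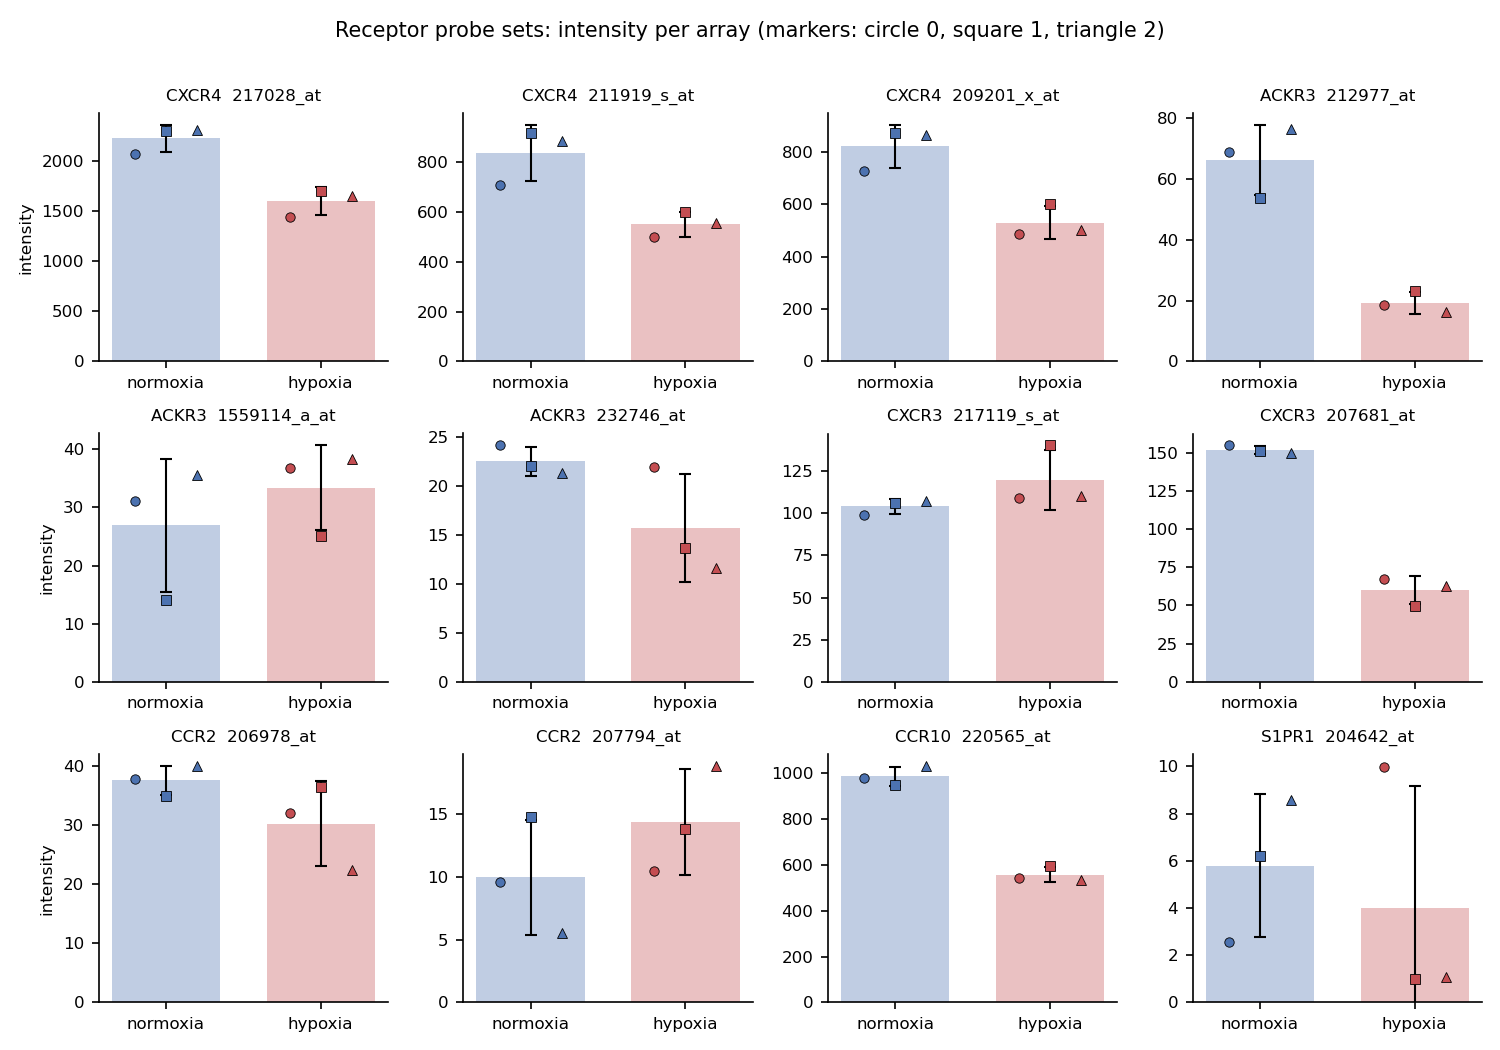
Intensity (linear axis from 0) of the 12 receptor probe sets in normoxia (blue) and hypoxia (red); bars are means, error bars ± 1 SD (n = 3, cut off at 0 where they would pass below it) and symbols single arrays. The CXCR4 probe sets and CCR10 were lower on every hypoxia array, as were 212977_at of ACKR3 and 207681_at of CXCR3, while S1PR1 stayed under 10 units on every array.

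ACKR3, an atypical receptor that binds CXCL12 and removes it without G protein signalling, was read at low levels. Probe set 212977_at was at 68.6, 53.7 and 76.3 in normoxia and at 18.4, 23.2 and 16.1 in hypoxia. The groups did not overlap, with a change of -1.22 (95% confidence interval -1.54 to -0.89, limma adjusted p = 0.000994). The normoxia values lay near the array medians and the hypoxia values well under them, where signal cannot be told from background here, so the size of the fall is uncertain. It was -1.73 with a pseudocount of 1 and -0.64 with one of 64. The other ACKR3 probe sets, 1559114_a_at and 232746_at, were below the array median on every array. They had changes of 0.23 (-0.33 to 0.79) and -0.29 (-0.61 to 0.029), with limma adjusted p of 0.542 and 0.162. Without hypoxia array 0 the second of these passed at -0.43 (limma adjusted p = 0.0149). Their changes differed from that of 212977_at by 1.45 and 0.92 within arrays (exact permutation p = 0.1 for each, the smallest that 3 against 3 arrays allow; 0.225 adjusted over the 9 pairs of probe sets compared).

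CCR10, the receptor for CCL27 and CCL28 that brings plasma cells to skin and mucosa, had the clearest fall among the bright receptor probe sets. Its probe set read 979, 947 and 1032 in normoxia and 544, 594 and 533 in hypoxia. The lowest normoxia array was far above the highest hypoxia array, and the hypoxia mean was 43.5% lower. The change was -0.81 (limma adjusted p = 0.000595, 95% confidence interval -0.997 to -0.617). This call was kept under every alternative run, between -0.87 and -0.73. CCR10 has only 1 probe set, so no second reading checks it.

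CXCR3, the receptor for the interferon-induced chemokines CXCL9, CXCL10 and CXCL11, passed lower on 1 of its 2 probe sets and did not pass on the other. Probe set 207681_at was at 155, 151 and 149.7 in normoxia and at 67.4, 49.6 and 62.9 in hypoxia. That is a change of -1.15 (95% confidence interval -1.41 to -0.89, limma adjusted p = 0.000501), with no overlap. Probe set 217119_s_at was at 99.1, 106 and 107.4 in normoxia and at 109, 140.3 and 110.0 in hypoxia. Its hypoxia arrays all lay above its normoxia arrays, but the change of 0.17 (-0.096 to 0.43) did not pass (limma adjusted p = 0.326). The changes differed by -1.32 within arrays (exact permutation p = 0.1, the smallest possible; 0.225 adjusted over 9 pairs). The fall given for CXCR3 therefore rests on 1 of its 2 probe sets, and which of them reports the gene was not tested.

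CCR2, the receptor for CCL2, and S1PR1 were below the array median on every array. The CCR2 probe sets ranged from 22.4 to 39.99 (206978_at) and from 5.54 to 18.8 (207794_at) over the 6 arrays. Their changes were -0.22 (-0.54 to 0.093) and 0.23 (-0.17 to 0.63), and the groups overlapped. S1PR1 read 2.57, 6.22 and 8.59 in normoxia and 9.97, 1 and 1.06 in hypoxia, with a change of -0.14 (-0.63 to 0.35, limma adjusted p = 0.673). No change of CCR2 or S1PR1 was detected, and the intervals allow changes in both directions.

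Among the chemokines, CCL4 was lower in hypoxia and CCL5 did not pass. CCL4, which attracts immune cells, read 460, 363 and 432 in normoxia and 233, 232 and 232 in hypoxia. The hypoxia arrays differed by less than 2 units, and all lay well under the lowest normoxia array. The hypoxia mean was 44.4% lower, a change of -0.80 (95% confidence interval -1.04 to -0.55, limma adjusted p = 0.00170). CCL4 also has near-identical copies in the genome, and how far their transcripts reach this probe set was not tested.

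CCL5, a ligand of CCR1, was read by 3 bright probe sets. Probe set 1405_i_at was at 1569, 1402 and 1495 in normoxia and at 1571, 1402 and 1389.9 in hypoxia. Probe set 204655_at was at 1433, 1321 and 1386 and at 1413, 1368 and 1421. The groups overlapped in both, with changes of -0.034 (95% confidence interval -0.24 to 0.17) and 0.022 (-0.15 to 0.19). Probe set 1555759_a_at went from 880.3, 967 and 937 to 836, 850.4 and 835.6. Its arrays did not overlap, yet the change of -0.14 (-0.31 to 0.032) did not pass (limma adjusted p = 0.208). All 3 intervals exclude a fall as large as the 0.80 of CCL4. T and NK cells are a known source of CCL4 and CCL5. Of their 9 markers 1 passed higher and 0 lower in limma: CD3D went from 98.3 ± 14.9 to 131.6 ± 7.73 (adjusted p = 0.0485). At an unadjusted p of 0.05 the counts were the same, 6 of the 9 lay below the array median on every array, and the part of such cells in the CCL4 and CCL5 values was not tested.

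CXCL12 itself was close to the bottom of the scale. Probe set 203666_at was at 16.1, 20.9 and 23.8 in normoxia and at 16.3, 10.1 and 10.9 in hypoxia, and 209687_at stayed between 4.25 and 9.49 over all arrays. Their changes were -0.35 (-0.66 to -0.047, limma adjusted p = 0.0858) and 0.0022 (-0.25 to 0.25). The first passed without hypoxia array 0, at -0.45 (limma adjusted p = 0.0413). Both lay below the array median on every array, so the ligand of CXCR4 was not read above levels that could be background.

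**Figure D2:**
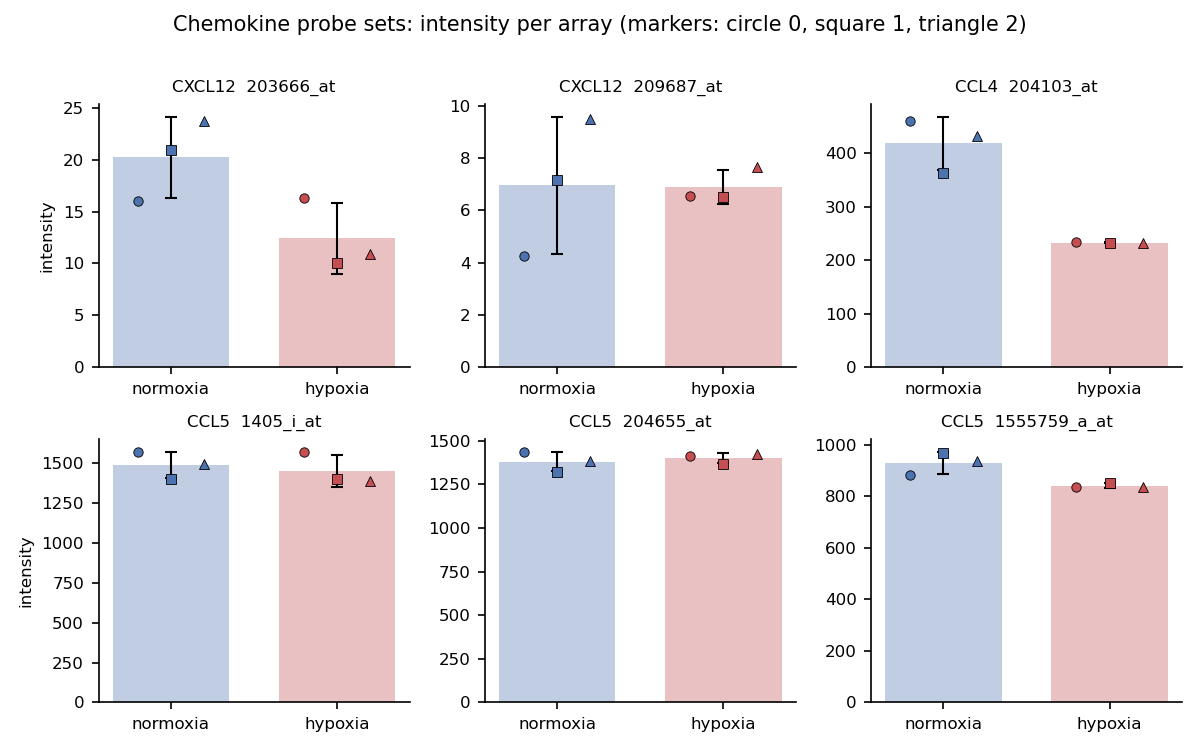
Intensity (linear axis from 0) of the 6 chemokine probe sets in normoxia (blue) and hypoxia (red); bars are means, error bars ± 1 SD (n = 3) and symbols single arrays. CCL4 falls from 418 to 233 on average, the CCL5 probe sets keep within 10% of their normoxia means, and CXCL12 stays under 25 units.

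Set side by side, 6 of 12 receptor probe sets passed lower and 0 higher, with 6 not past, and 1 of 6 chemokine probe sets passed lower and 0 higher, with 5 not past, in limma. At an unadjusted p of 0.05 the counts were 6 and 0 for receptors and 2 and 0 for chemokines. The share of all probe sets at that unadjusted p was not worked out. At the adjusted threshold, 15.2% of all probe sets passed lower and 15.5% higher, 30.7% in all. That balance depends on the setting: 9583 passed lower and 7289 higher with median centring, and 7386 and 6492 when only single-symbol probe sets were tested, against 8289 and 8481. By gene, CXCR4, ACKR3, CXCR3 and CCR10 among the 6 receptors and CCL4 among the 3 measured chemokines had a probe set that fell. The median change was -0.38 over receptor probe sets and -0.087 over chemokine probe sets, beside 0.017 over all probe sets. The difference between the classes was not tested, since the members were chosen with results known. Arrays did not overlap, with hypoxia lower, for 8 of the 18 probe sets, against 20.9% of all probe sets, and with hypoxia higher for 1, against 21.6%.

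Brightness bears on these counts. Of the 18 probe sets, 7 lay below the array median on every array, and none of these passed. All 7 falls were among the other 11, where 24.7% of all such probe sets passed lower and 24.5% higher. ACKR3 212977_at was among these 11 only through normoxia arrays, the group where it was higher. Its place among them is therefore not independent of its fall. Over the probe sets as bright as CCR10 and the 2 dimmer CXCR4 probe sets, grouped into 20 brightness classes of equal size, 35.8% passed lower and the lower quartile of the change was -0.57. The falls of CXCR4 at -0.58 and -0.62 were thus close to the lower quartile of their class, and that of 217028_at (-0.47) close to the quartile of -0.45 of its own. The falls of CCR10 (-0.81) and CCL4 (-0.80) were beyond the lower quartile of their classes (-0.57 and -0.52). They did not reach the 5th percentile (-1.37 and -1.34). The change of ACKR3 212977_at lay beyond the 5th percentile of its class (-0.61), as did that of CXCR3 207681_at beyond that of its own (-0.94).

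**Figure D3:**
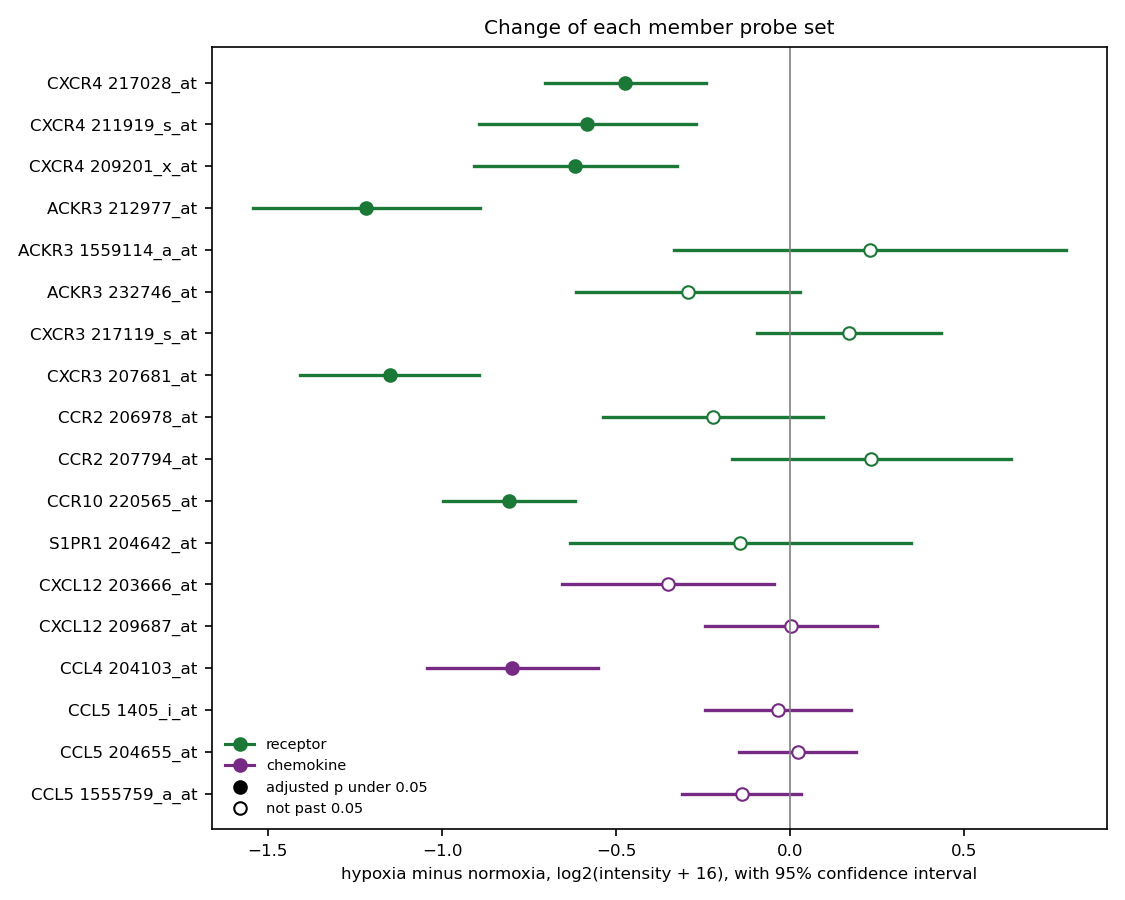
Log2 change (hypoxia minus normoxia) of each of the 18 probe sets with its 95% confidence interval, receptors in green and chemokines in purple; filled points passed an adjusted p of 0.05 in limma. The 7 filled points all lie left of 0, from -1.22 (ACKR3) to -0.47 (CXCR4), and no probe set passed to the right.

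**Figure D4:**
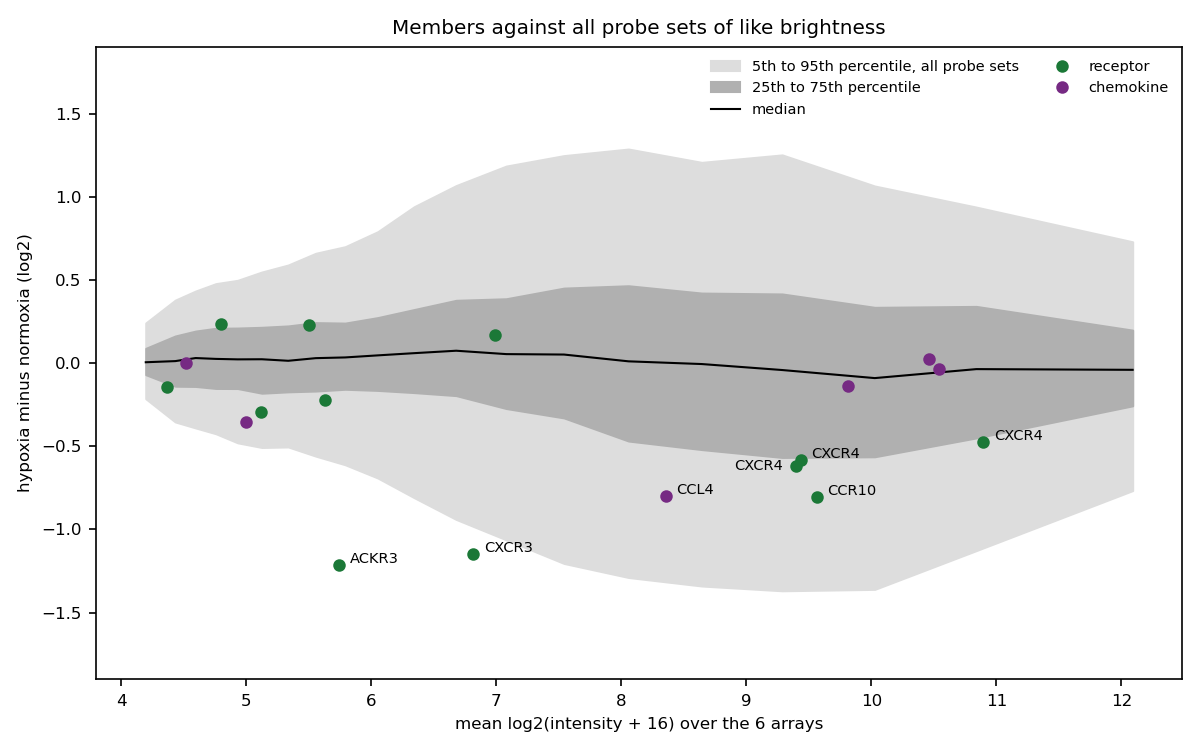
Log2 change (vertical axis) against mean log2(intensity + 16) over the 6 arrays (horizontal axis); shaded bands give the 5th to 95th and the 25th to 75th percentile of all 54613 probe sets in 20 brightness classes, points the 18 probe sets. CXCR4 lies near the lower edge of the inner band, and ACKR3 and CXCR3 have points beyond the outer band.

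The other genes of the pathway were each read by their brightest probe set; over all 19775 genes so read, 19.1% passed lower and 15.6% higher. Of 16 other chemokine receptor genes, 4 fell, 2 rose and 10 did not pass, with a median change of 0.051. CCR1, a receptor for CCL3 and CCL5, went from 3363 ± 128 to 2425 ± 40.04 (mean ± SD, n = 3) and fell in both of its probe sets (-0.47 and -0.63). CX3CR1, the fractalkine receptor, went from 1186 ± 16.5 to 809 ± 30.2, while its dimmer probe set did not pass. CCRL2, an atypical receptor that does not signal through G proteins, went from 712 ± 7.48 to 406 ± 36.4. XCR1 fell from 53.3 ± 1.52 to 23.8 ± 7.51, within the range of background. The genes that rose, named after their values were seen, were also dim: CCR8 at 24.2 and 32.8 and ACKR2 at 45.6 and 72.3. Limma adjusted p of the 4 that fell was at most 0.00646.

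Of 35 other chemokine genes, 27 lay below the array median on every array. CXCL14 passed lower, 0 passed higher and 34 did not pass; at an unadjusted p of 0.05 in limma the counts were 3 lower and 4 higher. CXCL14 went from 41.6 ± 12.3 to 11.0 ± 9.07, and averaging its 3 probe sets ended the call (-0.22, limma adjusted p = 0.410). The ligands CXCL9, CXCL10 and CXCL11 of CXCR3, CCL2 of CCR2 and CCL27 and CCL28 of CCR10, named as partners of the receptors above, were at hypoxia means of 27.9, 21.5, 19.2, 7.90, 46.7 and 26.7 and did not pass.

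In the sphingosine 1-phosphate pathway, 4 of 11 genes fell and 0 rose in limma, with a median change of -0.36. At an unadjusted p of 0.05 these counts were 5 and 0. SGPP1, a phosphatase that removes sphingosine 1-phosphate, went from 604 ± 45.1 to 345 ± 7.35 and fell in both probe sets. SGPL1, the lyase that degrades it, went from 222 ± 21.4 to 161 ± 7.13. SPNS2, which exports it, went from 83.5 ± 16.2 to 40.04 ± 7.75, and CD69, which binds S1PR1 and takes it off the surface, from 10.1 ± 2.84 to 3.08 ± 1.85, a range where signal cannot be told from background. Averaging the probe sets of each gene ended the call of SGPL1 (-0.24, limma adjusted p = 0.0692) and moved the list's median to -0.13.

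Genes that act below the chemokine receptors moved in both directions, with 7 of 23 higher, 3 lower and 13 not past, and a median change of 0.21. Of the 23, 0 lay below the array median on every array. Among all probe sets not below it throughout, 24.5% passed higher and 24.7% lower, so these counts set the list apart little. The RGS proteins speed the switching off of G proteins, and whether each acts on those that chemokine receptors use was not tested. RGS1 rose from 3898.5 ± 122 to 13470.1 ± 310.0 on its brightest probe set (1.78, 95% confidence interval 1.62 to 1.95, limma adjusted p = 5.45e-05), and its other probe sets rose by 3.70 and 1.95. RGS2 rose from 2478 ± 90.5 to 5425 ± 114 (1.13, limma adjusted p = 0.000129). RGS16 fell from 1063 ± 124 to 324 ± 43.6 (-1.67, limma adjusted p = 0.000316), with a second bright probe set at -1.71. JAK2, a kinase linked to cytokine and chemokine receptors, rose in all 3 probe sets, from 186 ± 12.2 to 483 ± 28.4 on the brightest.

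The other called genes of that list, picked once their values were known, include regulators of CXCR4 turnover. On its brightest probe set ITCH, the ubiquitin ligase that sends CXCR4 to the lysosome, rose from 686 ± 35.9 to 1254 ± 29.4 (0.86, limma adjusted p = 0.000374). Of the kinases that phosphorylate receptors of this kind, GRK5 rose from 846 ± 95.7 to 1412 ± 49.3. GRK6 fell from 1140 ± 86.3 to 667 ± 89.4 and GRK3 from 186 ± 20.9 to 130 ± 17.3. RGS13 and RAC2 rose by 0.53 and 0.26. Probe sets called higher were 3 of 6 for ITCH, 2 of 4 for GRK5, 1 of 3 for RGS13 and 2 of 2 for RAC2. Those called lower were 2 of 4 for GRK6 and 2 of 3 for GRK3. The remaining probe sets of these genes did not pass. Surface receptor and signalling were not measured.

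**Figure D5:**
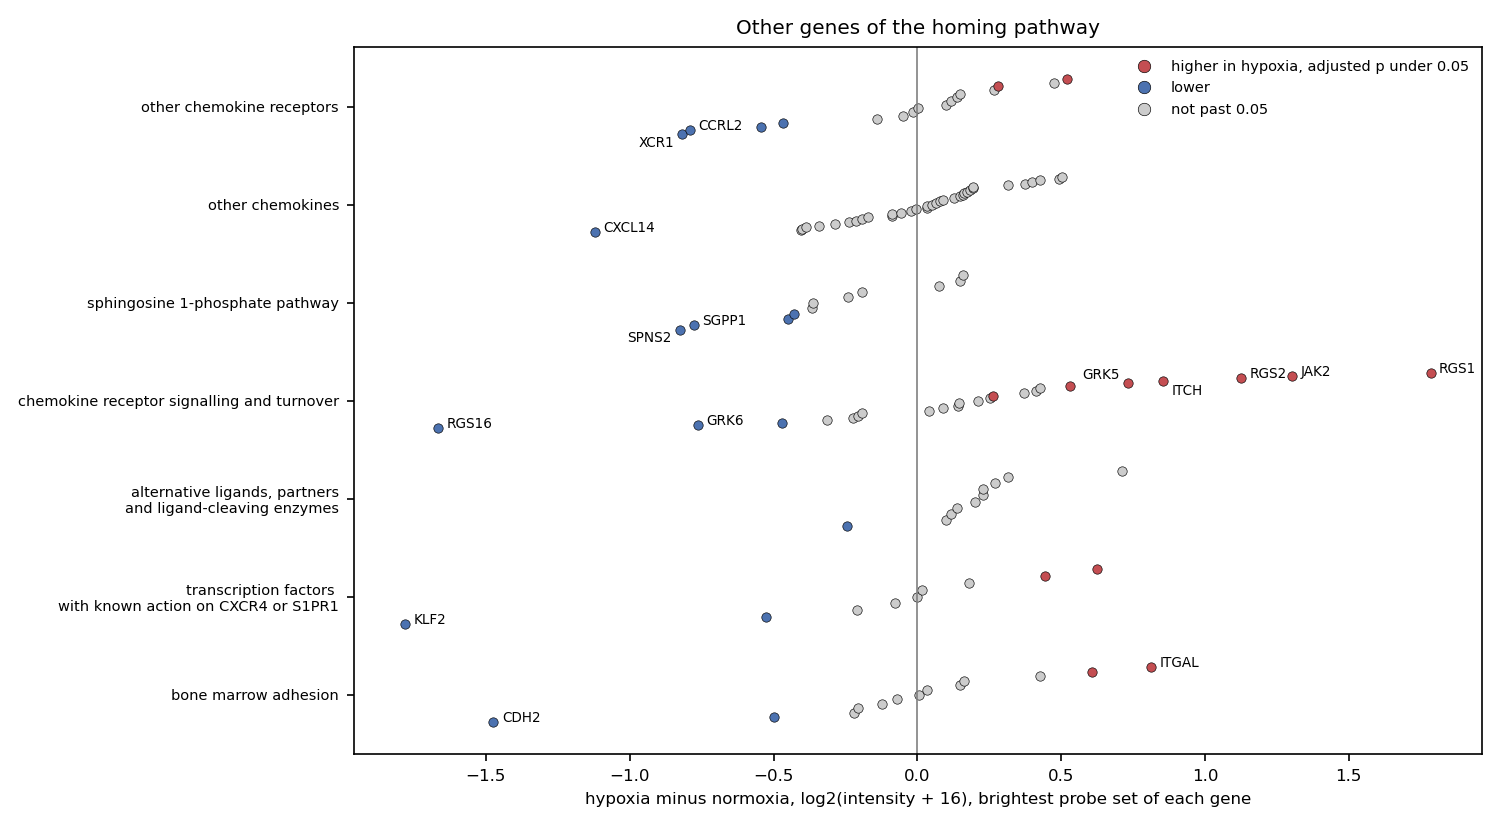
Log2 change (hypoxia minus normoxia, horizontal axis) of the brightest probe set of each gene in the 7 lists of other pathway genes (vertical axis); red genes passed higher, blue lower and grey did not pass an adjusted p of 0.05 in limma. RGS1 (1.78) and KLF2 (-1.78) mark the ends, and nearly all other chemokines are grey.

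Of 9 transcription factor genes known to act on CXCR4 or S1PR1, 2 fell, 2 rose and 5 did not pass. KLF2, which switches on S1PR1 in lymphocytes, went from 1037 ± 56.2 to 290 ± 18.8 (-1.78, 95% confidence interval -1.98 to -1.58, limma adjusted p = 7.07e-05), although its target S1PR1 was at the bottom of the scale in both groups. A second, dim KLF2 probe set did not pass. NRF1, whose motif stands in the CXCR4 window shown above, went from 496 ± 17.7 to 339 ± 19.1 (-0.53, limma adjusted p = 0.00281). Its 5 probe sets disagreed, with 3 lower, 1 higher and 1 not past. Any part of NRF1 in the CXCR4 values was not tested. ARNT, the partner of the HIF alpha subunits, rose by 0.63 and RELA, a subunit of NF-kB, by 0.44. HIF1A was at 2814 ± 58.9 in normoxia and 2813 ± 8.45 in hypoxia.

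Of 10 genes for alternative ligands, partners and ligand-cleaving enzymes, 1 fell and 0 rose in limma (1 and 3 at an unadjusted p of 0.05). HMGB1, which forms a complex with CXCL12, went from 11456 ± 425 to 9657 ± 86.5 and fell in all 5 of its probe sets, by 0.25 to 0.53. MIF, another ligand of CXCR4, was at 10887 ± 821 and 11954 ± 519, and CD74, its receptor, at 5669 ± 534 and 6139 ± 396, and neither passed. Of 13 adhesion genes of marrow retention, 2 rose, 2 fell and 9 did not pass; averaging the probe sets of each gene gave 3 and 2. CD44, the hyaluronan receptor, did not pass on its brightest probe set, but 7 of its 13 probe sets were higher and 1 lower. ITGA4, a subunit of the VCAM1 receptor, went from 3367 ± 96.0 to 2379 ± 60.4 and fell in 3 of 4 probe sets, and CDH2, N-cadherin, from 167 ± 7.74 to 50.03 ± 2.63, with a second CDH2 probe set not past (limma adjusted p = 0.134). SELPLG, the P-selectin ligand, rose from 3644 ± 183 to 5553 ± 194, with a second SELPLG probe set not past (limma adjusted p = 0.0978), and ITGAL, a subunit of the ICAM1 receptor, from 365 ± 36.9 to 654 ± 87.5.

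The probe sets whose profile was most like that of CXCR4 217028_at belonged to SLC25A37, ERCC4, COMTD1, RNASEH1 and PITPNA. Likeness was the root mean square difference over the 6 arrays of log2(intensity + 16) centred on each probe set's mean, among single-symbol probe sets at or above the median brightness, and was 0.012 to 0.019 log2 units for these. Their changes were -0.49 to -0.46, and like CXCR4 each was lowest in array 0 of both groups. The measure takes in the difference between the groups as well as the spread within them.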

How the data were processed

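The authors deposited 1 linear intensity per probe set and array; their background correction, probe summary and scaling are not given in the sources used here. Precision is limited by having 3 arrays a group. Per the labels' protocols, total RNA was labelled as biotinylated cRNA. Groups came from the condition label and replicate numbers from the titles. Probe sets were named by the platform annotation supplied with the table, with symbols brought up to date through RefSeq (41091 probe sets with 1 symbol, 1801 with several, 11721 with none here). Intensities were turned into log2(intensity + 16) and all 54613 probe sets were fitted in R 4.3.3 by limma 3.58.1 (lmFit, then eBayes), without covariates. Tests were two-sided, p-values were adjusted by Benjamini and Hochberg's method over the whole table, and the threshold was 0.05. Differences between probe sets of a gene used an exact permutation test over arrays. No 2 arrays shared more than 1.23% of their values, so no array is a copy of another, and each was counted as a sample. Arrays were treated as unpaired, since the labels state no pairing. Deviations from the group means correlated at 0.21, 0.0082 and 0.19 for numbers 0, 1 and 2. Between arrays of unlike number they correlated at -0.23 to 0.093, so a pairing of numbers 0 and 2 remains possible. The run with the replicate block, given below, treats arrays of the same number as pairs.

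The text names every member probe set, the called genes with the lowest adjusted p in each list (4 at most), and the 5 probe sets most like CXCR4; the text says where another gene was picked after seeing its value or as a receptor's partner. The members and lists were chosen with earlier results of these data known. Alternatives changed the pseudocount, the filter on dim probe sets, the scaling, the probe sets tested, the variance model, the replicate block, the arrays left out and the reading of a gene by the mean of its probe sets. The procedure was tested on simulated data. Promoter windows were searched with Python 3.11.15.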

Additional observations from a re-analysis of the deposited data

How the results depend on the processing

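The count of 7 member probe sets lower and 0 higher was kept with pseudocounts of 1 and 64, median centring, quantile normalization, single-symbol probe sets and an intensity trend; 6 were lower when dim probe sets were left out, which removes ACKR3, and 6 to 9 when 1 array was left out, with 0 higher throughout. With the replicate block, which treats same-numbered arrays as pairs, 7 were lower. Over all probe sets 8114 were then lower and 8417 higher (8289 and 8481 without the block). The check of the pairing went with it for numbers 0 and 2 and left number 1 undecided. In the deviations, hypoxia array 1 correlated best with normoxia array 2, and the other arrays with the array of their number. The median change of receptor probe sets was -0.57 with a pseudocount of 1, -0.29 with 64, -0.60 without dim probe sets and -0.45 with median centring, and -0.42 to -0.35 with 1 array left out. That of chemokine probe sets was -0.15 with median centring and -0.031 with quantile normalization, and -0.13 to -0.078 with 1 array left out. Of 244 values of single member probe sets under the alternatives, 10 changed sign, all of probe sets that never passed. They were CXCL12 209687_at with a pseudocount of 64 (-0.00060), median centring (-0.063), quantile normalization (-0.012), without normoxia array 0 (-0.085) and without hypoxia array 2 (-0.021); CCL5 204655_at with median centring (-0.044) and without normoxia array 1 (-0.0092); CCL5 1405_i_at with quantile normalization (0.042) and without normoxia array 0 (0.0040); and ACKR3 1559114_a_at without normoxia array 1 (-0.0086). With 1 array left out, the changes of these ran up to 0.081 for CXCL12 209687_at, from -0.090 for CCL5 1405_i_at, up to 0.049 for CCL5 204655_at and up to 0.38 for ACKR3 1559114_a_at. The cause was not tested. With each gene read by the average over its probe sets, 1 other chemokine receptor gene rose in place of 2, and 1 gene rose in place of 0 among alternative ligands and partners. In the same way 3 adhesion genes rose in place of 2, 4 signalling genes fell in place of 3 and 3 genes of the sphingosine 1-phosphate pathway fell in place of 4, and the other pathway list counts were the same; the marker lists were not recomputed this way. Averaged over their probe sets, CXCR4, ACKR3 and CXCR3 changed by -0.56, -0.43 and -0.49 (limma adjusted p = 0.0073, 0.036 and 0.000737). CCR2, CXCL12 and CCL5 did not pass when averaged. The averages of ACKR3 and CXCR3 join probe sets that passed with others that did not. Low signal limits ACKR3, CCR2, S1PR1 and CXCL12.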

Other observations

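Among the markers of other cell types, HBB, a haemoglobin subunit, was read at 1751 in normoxia and 1125 in hypoxia in this myeloma line (limma adjusted p = 0.00177), and EPCAM, an epithelial surface protein, at 24.8 and 67.3 (limma adjusted p = 0.00131). CD3D, given above, was the third such marker that passed. RGS1 probe sets differed in size, from 832 to 10971 on 202988_s_at and from 3898.5 to 13470.1 on 216834_at, with changes of 3.70 and 1.78. ITGA4 was higher in hypoxia, though not past the threshold, on 1 probe set (0.31, limma adjusted p = 0.119) while its 3 others fell.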
